A study of Mus musculus with 11 samples.

Results

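Perforin, the granzymes and Nkg7 belong to the cytotoxic granule, and their transcripts were followed in dendritic epidermal T cells (DETCs) of mice with and without Langerhans cells (LCs). The 10 genes, given by name and found in the table through their Ensembl identifiers, were Prf1, Gzma, Gzmb, Gzmc, Gzmd, Gzme, Gzmf, Gzmk, Gzmm and Nkg7, of 52550 genes listed. LC-/- mice were huLangerin-DTA mice, in which the human langerin promoter drives diphtheria toxin subunit A, so that LCs are missing from birth on, and their controls were wild-type (WT) littermates. All mice were female and untreated as far as the labels say, and 8 weeks old by the study's methods. The labels and these methods give no background strain, although the study names FVB beside a remark on mast cells of LC-/- mice. DETCs were sorted from flank epidermis as live MHC-II-, CD45+, langerin-, c-kit- cells, and keratinocytes (KCs) as live MHC-II-, CD45-, langerin-, c-kit- cells. The DETC gate used no T cell receptor antibody, so other CD45+ MHC-II- cells could pass it. DETC libraries came from 3 WT samples (W1, W2 and W3) and 2 LC-/- samples (L2 and L3), and KC libraries, which serve as background, from 3 WT samples and 3 LC-/- samples (L1, L2 and L3). These names follow the order of the numbers in the labels, and nothing in the labels says that a number stands for 1 animal.

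Cytotoxic lymphocytes store perforin and granzymes in secretory granules and release them toward a target cell. Perforin, the product of Prf1, forms pores in the target membrane, and granzymes are serine proteases that pass through and cleave proteins inside the cell. Granzyme B cleaves after aspartate and starts apoptosis, granzyme A and granzyme K cleave after basic residues, granzyme M cleaves after methionine or leucine, and the proteins of Gzmc to Gzmg belong to a rodent group of granzyme B relatives. Nkg7 encodes a membrane protein of the granule that takes part in its release. DETCs are γ/δ T cells with an invariant Vγ5Vδ1 receptor that live between KCs and can kill stressed or transformed cells.

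Prf1 (ENSMUSG00000037202.6) lies on the plus strand at chr10:61297833-61304680 of GRCm38, and Nkg7 (ENSMUSG00000004612.9) on the plus strand at chr7:43437073-43438249. Gzmb (ENSMUSG00000015437.5, chr14:56258838-56262260) and Gzmc (ENSMUSG00000079186.3, chr14:56231441-56234656) are neighbours on the minus strand of chromosome 14, in a cluster that also holds Gzmd, Gzme, Gzmf, Gzmg and Gzmn. Gzma (ENSMUSG00000023132.8, chr13:113093825-113100981, minus strand) lies near Gzmk on chromosome 13, and Gzmm on chromosome 10. Values cover the exons of each gene. RefSeq promoter entries on GRCm38.p6 were found for all 10 genes, and the 250 bases before the start are shown for Prf1, the gene that differed between genotypes, and for the 2 granzymes with the highest levels, Gzmc and Gzmb. Capitals mark the RUNX core (TGTGGT on either strand, so also ACCACA) and, in Gzmb, the AP-1 site (TGACTCA on either strand), and no match overlaps another.
Prf1, chr10:61297586-61297835, plus strand: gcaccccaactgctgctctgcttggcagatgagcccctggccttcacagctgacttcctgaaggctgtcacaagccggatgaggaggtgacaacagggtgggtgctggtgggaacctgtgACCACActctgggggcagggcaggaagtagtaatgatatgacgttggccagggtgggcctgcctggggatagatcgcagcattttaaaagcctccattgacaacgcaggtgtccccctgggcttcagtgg
Gzmc, chr14:56234658-56234907, minus strand: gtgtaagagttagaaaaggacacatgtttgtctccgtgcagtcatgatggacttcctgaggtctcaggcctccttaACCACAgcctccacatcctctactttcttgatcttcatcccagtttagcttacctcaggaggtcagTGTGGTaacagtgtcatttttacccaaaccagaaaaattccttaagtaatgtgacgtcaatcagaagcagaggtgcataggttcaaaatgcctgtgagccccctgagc
Gzmb, chr14:56262335-56262584, minus strand: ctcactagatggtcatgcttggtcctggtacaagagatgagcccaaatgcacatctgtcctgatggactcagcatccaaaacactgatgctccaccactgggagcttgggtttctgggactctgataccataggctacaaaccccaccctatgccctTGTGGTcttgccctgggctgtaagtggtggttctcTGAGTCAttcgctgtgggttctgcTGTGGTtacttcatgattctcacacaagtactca
Counted back from the RefSeq start, the RUNX core began at base 130 in Prf1, at 174 and 108 in Gzmc and at 93 and 34 in Gzmb. The AP-1 site of Gzmb began at 58. For Gzmb this start lies outside the gene coordinates given above, so distances from the start of those coordinates would differ. The RUNX core was in a window of 9 of the 10 genes, all but Gzmk, and in 14.2% of 27025 RefSeq promoters of the same length. In Gzmm it was in 1 of 2 windows. The Gzmc, Gzmd, Gzme and Gzmf windows are related in sequence, so these matches are not separate events. Gzmc was 81.3% identical to Gzmd and 50.2% to Gzmb over this window. Of the other letters searched, the AP-1 site was in 4.43% of promoters, the T-box core GGTGTG in 16.2%, the STAT site TTCNNNGAA in 7.18% and the Nr4a site AAAGGTCA in 1.31%, each on both strands, and TATAAA on the given strand in 8.12%. Prf1 and Gzmc held none of these other letters. These matches describe letters and not binding.

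Libraries held 13491075 to 19750440 reads on genes. The labels were checked against markers. In the 5 DETC libraries all 15 DETC markers were over 3 reads, and their summed normalized count was 267535 to 291761, against 357 to 671 in KCs. Keratinocyte markers in the DETC libraries stood at 15.4% (W1), 16.0% (W2), 18.2% (W3), 25.2% (L2) and 16.2% (L3) of their KC level. Normalized counts of Cd207, which encodes langerin, were 21.8, 16.5 and 46.7 in WT DETCs and 0 and 4.42 in LC-/- DETCs. In sorted bulk samples, fewer cells of a type and less RNA per cell cannot be told apart. The study describes the points of its principal component plot as separate animals.

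In WT DETCs the granule transcripts were led by Nkg7, Gzmc and Prf1. Levels are given here as the normalized read count per kb of exon, which allows genes to be compared. Nkg7 had the highest level, 8559 ± 561 (SD, n = 3), which ranked 55 among the 14419 genes that passed the filter on low values. Gzmc followed with 3974 ± 975 (rank 143) and Prf1 with 2286 ± 70.6 (rank 290). Gzmb, the granzyme most often studied, was far lower at 253 ± 95.8 (rank 2813), and Gzma was at 20.5 ± 3.32 (rank 10726). The WT ranges of these 5 genes did not overlap one another. Below them stood Gzmm at 6.21 ± 2.14 and Gzmf at 5.94 ± 1.46, whose WT ranges overlapped, then Gzmk at 2.58 ± 1.52 and Gzme at 0.300 ± 0.520, while Gzmd had no read.

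LC-/- DETCs had the same order of the 5 leading genes by their means. Levels per kb in L2 and L3 were 7080 and 7331 for Nkg7, 3763 and 2023 for Gzmc and 1569 and 1347 for Prf1. For Gzmb they were 156 and 733, and for Gzma 14.5 and 95.6. The libraries thus lay close together for Nkg7 and Prf1 and far apart for Gzmb and Gzma. Gzmb in L3 remained below Prf1 in the same library.

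**Figure D1:**
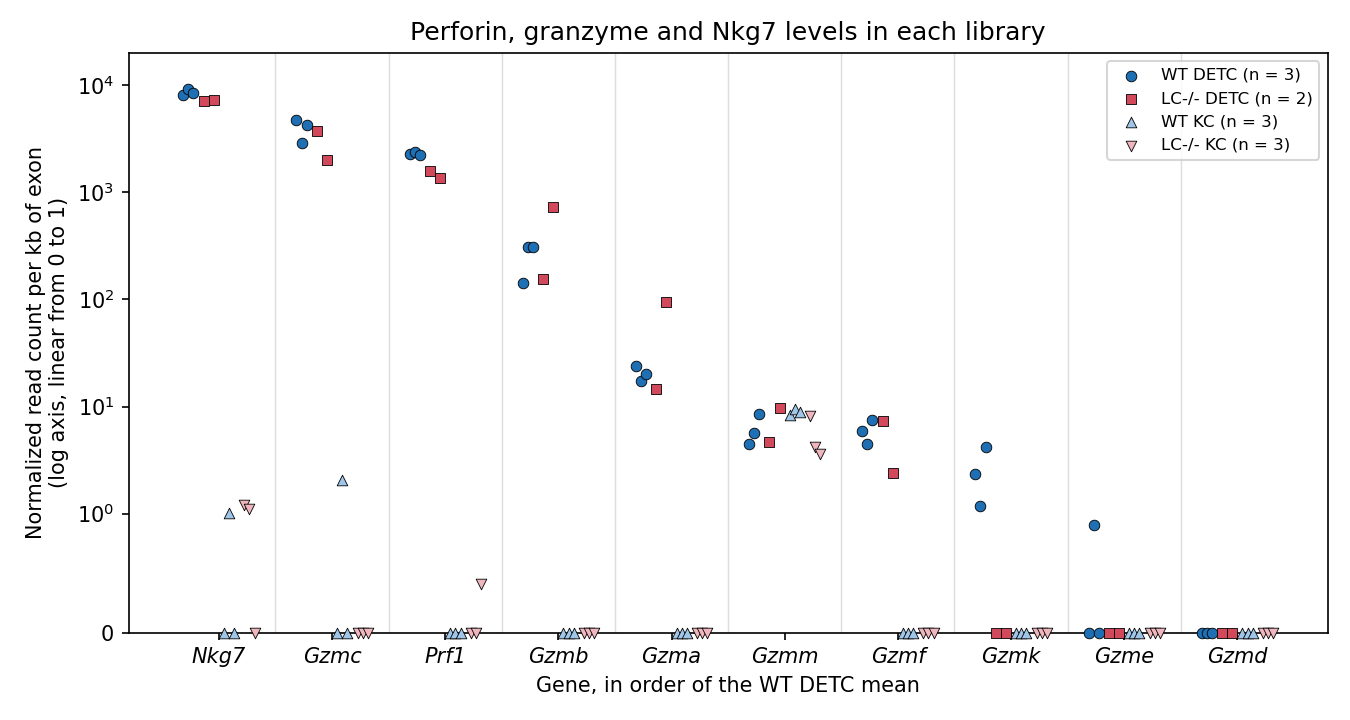
Normalized read count per kb of exon of the 10 genes (log axis, linear from 0 to 1) in each DETC library (circles WT, squares LC-/-) and KC library (triangles), with genes in order of the WT DETC mean. Nkg7, Gzmc and Prf1 lie at 1347 or higher in every DETC library, the KC libraries lie at or near 0, and the ranges of Gzmm overlap between the populations.

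Gzmc made up most of the granzyme transcripts in every DETC library. Of the summed level per kb of the 8 granzymes, Gzmc accounted for 96.4% in W1, 89.5% in W2, 92.5% in W3, 95.4% in L2 and 70.6% in L3. Gzmb accounted for 2.88%, 9.58% and 6.64% in WT DETCs and for 3.96% and 25.6% in L2 and L3. The share of Gzma was 0.367% to 0.535% in 4 libraries and 3.34% in L3. L3 therefore stood apart from the other 4 libraries in granzyme make-up, and L2 lay within the WT range for Gzmc and Gzmb. The summed level itself was 4938, 3221 and 4628 in WT DETCs and 3946 and 2864 in LC-/- DETCs, which overlap.

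KCs were used as the background of the measurement. Prf1 had 1 read in the 6 KC libraries together, Nkg7 had 3, Gzmc had 2, all in 1 library, and Gzmb and Gzma had none. A count of 0 allows up to 3 reads, which was a normalized count of at most 3.31 in any KC library and covers counting error alone. Against this floor, the lowest DETC library was at least 1958-fold higher for Nkg7, 1053-fold for Prf1, 547-fold for Gzmc, 61.7-fold for Gzmb and 4.41-fold for Gzma. DETC and KC libraries did not overlap for any of the 5. In WT samples limma called these 5 genes higher in DETCs, where 41.0% of all tested genes were called higher (adjusted p under 0.05, the threshold used throughout). They passed the filter through their DETC libraries, so this count follows from the filter. For the same reason the lack of overlap is no separate support, and its share over all tested genes is not given.

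Prf1 was lower in LC-/- DETCs, and it was the 1 member whose difference passed the test. Its normalized counts were 5876, 6104 and 5743 in W1, W2 and W3 and 4056 and 3480 in L2 and L3. The WT libraries were close together, and both LC-/- libraries lay below all of them. Mean values were 5908 ± 183 (SD, n = 3) and 3768 ± 407 (SD, n = 2), a decrease by 36.2%. The log2 fold change on log2(value + 1) was -0.65 with a standard error of 0.10 and a 95% interval of -0.88 to -0.43 (limma, adjusted p = 0.0189). Of the 5 tested members 1 was called, where 3.56% of all tested genes were called in either direction and 0.430% were called lower. Prf1 was also the 1 member called lower by edgeR (adjusted p = 0.0160, 0.506% of genes called lower) and by DESeq2 (adjusted p = 7.53e-08, 1.46%).

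The call of Prf1 depended on single libraries and on how the spread was estimated. Without W1 the adjusted p was 0.0354 (limma), and without W2, W3, L2 or L3 it was 0.0761, 0.0703, 0.0635 and 0.0510, with a log2 fold change of -0.76 to -0.54. It was lost with eBayes without a mean-variance trend (adjusted p = 0.180) and in 1 fit over all 11 libraries (0.216). The direction was the same in all 16 alternatives, and 10 of them called it.

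**Figure D2:**
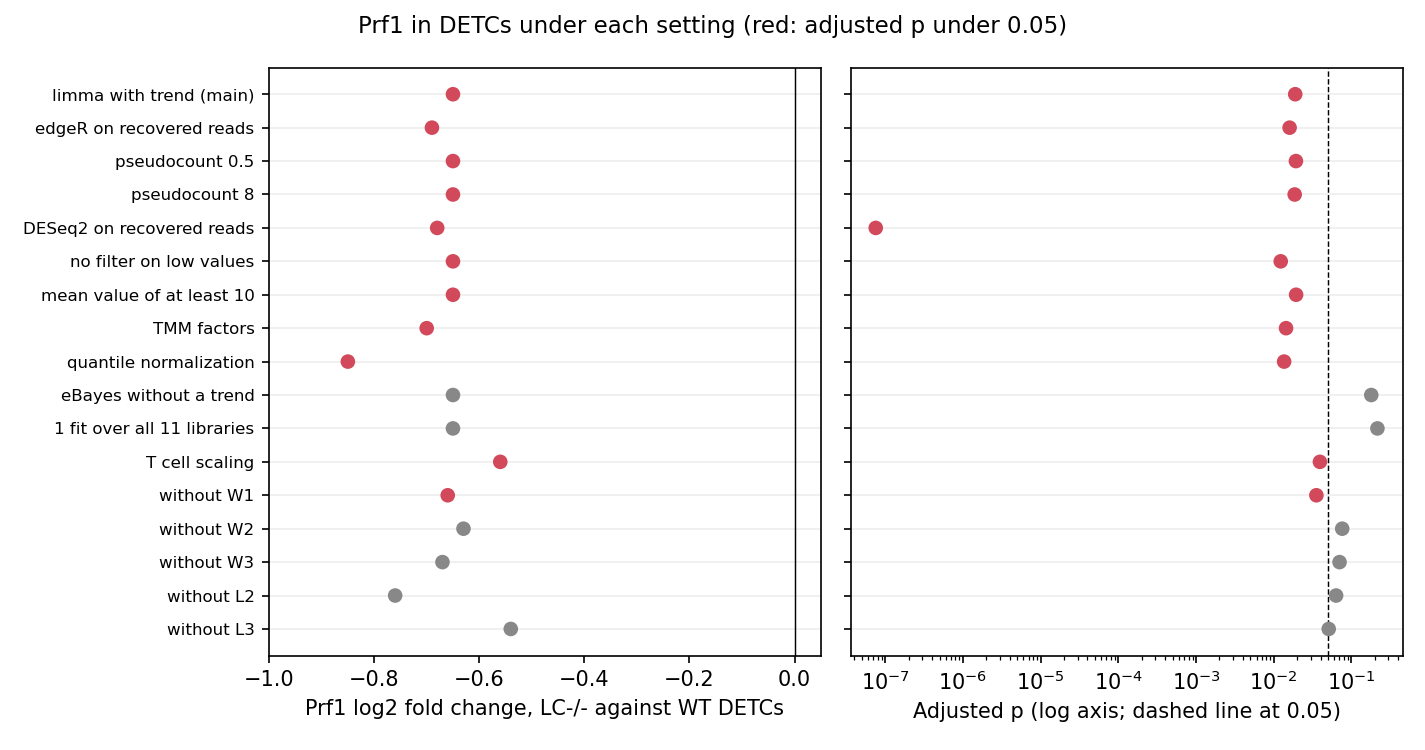
Prf1 log2 fold change of LC-/- against WT DETCs (left) and its adjusted p on a log axis (right) in the main fit and each alternative, with red points under an adjusted p of 0.05. The fold change stays between -0.85 and -0.54, and the adjusted p crosses 0.05 when W2, W3, L2 or L3 is left out.

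Prf1 was set beside T cell receptor genes of the same libraries. Per 1000 normalized counts of Cd3e, a chain of the CD3 complex of all T cells, Prf1 had 229, 220 and 227 in WT DETCs and 165 and 137 in LC-/- DETCs. Relative to Cd3e both LC-/- libraries were thus again lower. Per 1000 counts of Trdc, the constant region of the δ chain, Prf1 had 150, 201 and 149 in WT and 151 and 150 in LC-/- DETCs, and these groups overlap. Trdc itself had 39123, 30304 and 38560 counts in WT and 26887 and 23250 in LC-/- DETCs. Both LC-/- values were below all WT values (log2 fold change -0.52, limma adjusted p = 0.120). The γ chain genes Tcrg-C1 and Tcrg-V5 were also lower in both LC-/- libraries, with changes of the mean by -28.7% and -34.1%. DESeq2 called Trdc, Tcrg-C1 and Tcrg-V5 lower, against 1.46% of all tested genes, while limma and edgeR called none of them. Trdv4, which encodes the variable part of the δ chain in DETCs, fell in LC-/- DETCs (log2 fold change -1.04, limma adjusted p = 0.0279). This call of Trdv4 was kept without W2 (limma, adjusted p = 0.0442) and lost without W1 (0.0612) or W3 (0.0918). It was also lost with eBayes without a mean-variance trend (0.185) and in 1 fit over all 11 libraries (0.464). Without L2 or L3 a lone LC-/- library remained, so only the log2 fold change of Trdv4 is given (-1.24 and -0.85). These fits do not show that the call would hold. When the libraries were scaled to 6 T cell genes (Ptprc, Cd3d, Cd3e, Cd3g, Lck and Zap70), the log2 fold change of Prf1 was -0.56 (limma, adjusted p = 0.0393).

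Other cell type markers were summed in the same 5 libraries. The 15 DETC markers summed to 278861 to 291761 in WT and 267535 to 273548 in LC-/- DETCs. The 9 natural killer markers summed to 966 to 1264 in WT and 1323 to 1479 in LC-/- DETCs. Among these limma called 1 DETC marker lower (Trdv4), 1 natural killer marker lower (Klrb1c) and 1 higher (Itga2). Of all tested genes limma called 0.430% lower and 3.13% higher. DESeq2 called 4 DETC markers lower (Tcrg-C1, Tcrg-V5, Trdc and Trdv4) and 1 higher (Il2rb). It also called Klrb1c lower and Itga2 higher, against 1.46% of all tested genes lower and 6.02% higher. By edgeR Trdv4 was lower and Itga2 higher (0.506% and 2.84% of all tested genes), and Klrb1c was not called. Mean counts in WT and LC-/- DETCs were 425 and 767 for Itga2, 245 and 104 for Klrb1c and 162 and 98.2 for Klri2. Klra7, Klra8 and Klra9 were higher in both LC-/- libraries. In KCs the 9 natural killer markers summed to 1544 to 2184 (WT) and 2546 to 3226 (LC-/-), although 7 had no read there. Only Eomes and Itga2 had reads there, and Eomes had mean counts of 1.19 (WT) and 3.48 (LC-/-) in KCs. The KC sum was therefore nearly all Itga2, and neither Itga2 nor the sum is specific to natural killer cells. The part of keratinocyte RNA in the Itga2 values of the DETC libraries was not tested. Of 10 mast cell markers, 7 had no read in any DETC library (Fcer1a, Ms4a2, Cpa3, Tpsb2, Tpsab1, Cma1 and Mcpt4) and Mcpt8 was under the floor, while Kit had 294 to 573 and Hdc 4.85 to 25.3 normalized counts. The 9 myeloid markers summed to 347 to 431 in WT and 295 to 441 in LC-/- DETCs, and none of the 3 tested was called by limma, edgeR or DESeq2 or had an unadjusted p under 0.05. The 10 LC markers summed to 1626 to 1934 in WT and 1148 to 1247 in LC-/- DETCs. Of 8 tested, limma and edgeR called 4 lower (Cd74, H2-Aa, H2-Ab1 and H2-Eb1), against 0.430% and 0.506% of all tested genes. DESeq2 called 2 lower (Cd74 and H2-Eb1), against 1.46%. The part of these cell types in the Prf1 difference was not tested.

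Nkg7 was lower in both LC-/- libraries, but its difference did not pass the test. Normalized counts were 7338, 8359 and 7771 in WT DETCs and 6471 and 6700 in LC-/- DETCs. The groups did not overlap, and the gap between W1 and L3 was smaller than the range of the WT libraries. Means of 7823 ± 513 (SD, n = 3) and 6586 ± 162 (SD, n = 2) gave a log2 fold change of -0.25, with a standard error of 0.09 and a 95% interval of -0.46 to -0.03 (limma, adjusted p = 0.206). Per 1000 counts of Cd3e, Nkg7 had 286, 302 and 307 in WT and 263 and 264 in LC-/- DETCs. Per 1000 counts of Trdc it had 188, 276 and 202 in WT and 241 and 288 in LC-/- DETCs, so that relative to Trdc the groups overlapped and L3 was the highest.

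Gzmc, the main granzyme, varied within both genotypes. Its normalized counts were 4255, 2577 and 3827 in WT DETCs and 3364 and 1809 in LC-/- DETCs. W2 was low among the WT libraries and L3 was the lowest of all, while L2 lay within the WT range. The log2 fold change was -0.49 with a standard error of 0.28 and a 95% interval of -1.14 to 0.16 (limma, adjusted p = 0.388). Relative to Trdc, Gzmc stood at 109, 85.0 and 99.2 per 1000 counts in WT and at 125 and 77.8 in LC-/- DETCs, above and below the WT range.

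Gzmb and Gzma showed no difference that could be told from the spread, because the LC-/- libraries lay on either side of the WT means. Gzmb had 204, 443 and 441 normalized counts in WT DETCs and 224 and 1053 in LC-/- DETCs. L3 was the highest library, and W1 and L2 were the lowest. The log2 fold change was 0.51 with a standard error of 0.60 and a 95% interval of -0.88 to 1.89 (limma, adjusted p = 0.703), and it was -0.61 without L3 and 1.62 without L2.

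Gzma had 24.0, 17.3 and 20.4 normalized counts in WT DETCs and 14.6 and 96.2 in LC-/- DETCs, from 15 and 87 reads in L2 and L3. L3 was again the highest, and L2 was the lowest. The log2 fold change of 0.86 had a standard error of 0.68 and a 95% interval of -0.71 to 2.43 (limma, adjusted p = 0.543), and it was -0.46 without L3 and 2.18 without L2. The direction for both granzymes thus rested on 1 library.

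**Figure D3:**
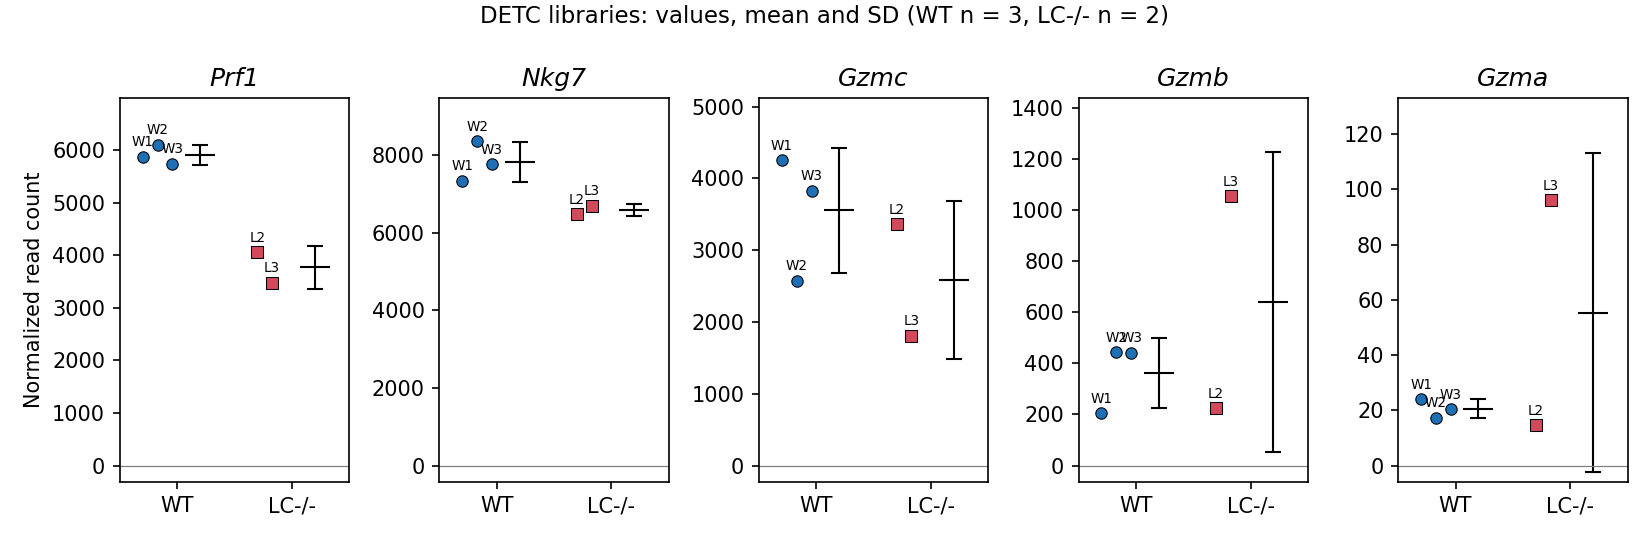
Normalized read counts of Prf1, Nkg7, Gzmc, Gzmb and Gzma in the DETC libraries W1 to W3 (WT) and L2 and L3 (LC-/-), with a dash and bar for the mean and SD of each genotype (n = 3 and n = 2). Both LC-/- points lie below the WT points for Prf1 and Nkg7, and L3 lies far above all others for Gzmb and Gzma.

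The remaining 5 members did not pass the filter and were not tested. Gzmf had 5, 5 and 7 reads in WT and 7 and 2 reads in LC-/- DETCs and none in KCs, and 151 of its exon bases overlap Gm4022 on the other strand, so reads of the pair may not be told apart. Gzmk had 3, 2 and 6 reads in WT DETCs and 0 in both LC-/- DETC libraries, which lie at the floor of 3 reads. Within this floor L2 and L3 cannot be told from W1 and W2, so no fold or direction is given for Gzmk. Gzme had 1 read, in W2, and Gzmd had 0 reads in all 11 libraries, as did Gzmg and Gzmn, the cluster members outside the 10 genes. Of the 75-base windows of their transcripts, 5.73% for Gzmd and 4.75% for Gzme also occur in other genes, and none for the other 8 members. Among the members, counting could thus lose reads of Gzmd and Gzme through shared sequence, apart from the overlap of Gzmf with Gm4022.

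Gzmm had reads in every library of both populations and no excess in DETCs. It had 6.55, 8.25 and 12.6 normalized counts in WT DETCs and 6.80 and 14.4 in LC-/- DETCs. In KCs it had 12.3, 13.9 and 13.0 (WT) and 12.1, 6.11 and 5.25 (LC-/-). The ranges of the populations overlap, and the counts rest on 5 to 15 reads per library.

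The genotypes were also compared in KCs and between the populations. In KCs no member was called and none had an unadjusted p under 0.05 by limma, edgeR or DESeq2, where limma called 7.23% of all tested genes. The 5 tested members lay at or under the floor of 3 reads in every KC library, so no difference could be seen there. For the difference of the genotype effect between DETCs and KCs, limma called 0 of 5 members, with 1 at an unadjusted p under 0.05, and edgeR called 0 with none under that value. Of all tested genes 0.798% were called by limma. With the members at the floor in KCs, this contrast adds nothing to the comparison within DETCs.

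Gzmb was set beside the effector molecules outside the granule and the α/β T cell markers. L3 was the highest DETC library for 7 of 10 of these effector genes and for 5 of 8 α/β T cell markers, as for Gzmb and Gzma, and for 18.4% of all tested genes. Tnfsf10, Lta and Xcl1 were highest in a WT library. Ifng, which encodes interferon-γ, had 461, 1282 and 734 normalized counts in WT DETCs and 372 and 1717 in LC-/- DETCs. Ccl5, a chemokine of effector T cells, had 143, 356 and 273 in WT and 72.8 and 647 in LC-/- DETCs. Tbx21, which encodes the transcription factor T-bet, had 1542, 3368 and 2231 in WT and 1905 and 4304 in LC-/- DETCs. These 3 genes were named because they were highest in L3 as Gzmb was.

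Among the α/β T cell markers, Trac, Cd8a, Cd8b1, Cd5 and Foxp3 were highest in L3, and Trbc1, Trbc2 and Cd4 in a WT library. Cd8a had 786, 2092 and 1716 normalized counts in WT DETCs and 378 and 2825 in LC-/- DETCs, and Trac had 2329, 3232 and 2817 in WT and 1622 and 3855 in LC-/- DETCs. The 8 α/β T cell markers summed to 10468, 12527 and 11093 in W1, W2 and W3, to 7782 in L2 and to 14992 in L3. For every 1000 counts of Cd8a the WT DETCs held 260, 212 and 257 counts of Gzmb, and L2 and L3 held 594 and 373. For every 1000 counts of Trac these libraries held 87.6, 137 and 157 counts of Gzmb, against 138 and 273. Both ratios still varied between libraries, and the part of α/β T cells in the Gzmb and Gzma values was not tested.

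**Figure D4:**
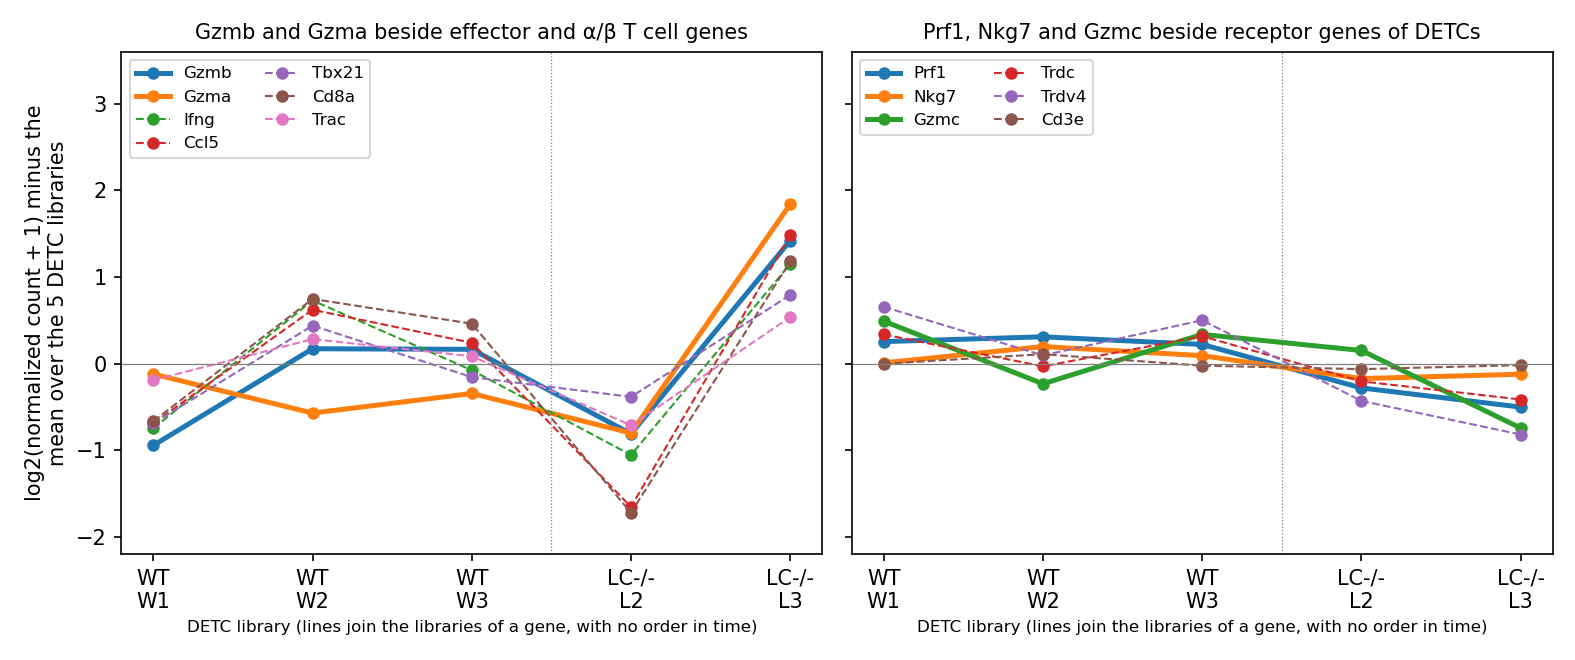
log2(normalized count + 1) minus the mean over the 5 DETC libraries, for Gzmb and Gzma beside effector and α/β T cell genes (left) and for Prf1, Nkg7 and Gzmc beside receptor genes (right). The genes shown on the left peak in L3, for which some were chosen, whereas Prf1 and Gzmc are lowest there, and Prf1 lies below its mean in both LC-/- libraries.

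Genes with the most similar pattern were searched for by the root mean square difference of centred log2 values over the 5 DETC libraries, among 11094 genes with a mean normalized count of at least 50. For Gzmb these were Col8a2 (0.143), a collagen chain, Kcnk2 (0.199), a potassium channel, Ccl3 (0.287), Igdcc4 (0.287) and Tgm5 (0.296), a transglutaminase, where the median gene was at 0.859. Ccl3, a chemokine of activated lymphocytes, had 22.9, 38.8 and 40.8 normalized counts in WT DETCs and 18.4 and 154 in LC-/- DETCs. For Prf1 these were Tmem67 (0.0312), Uqcc1 (0.0376), 2210016F16Rik (0.0452), Znhit1 (0.0694) and Zfp831 (0.0804), where the median gene was at 0.370. Nkg7 ranked 767 in likeness to Prf1, Gzmc 4773 and Gzmb 11063, so the granule genes did not share 1 pattern across these libraries. With 5 libraries in 2 groups such a ranking is a description.

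Genes whose products store, activate and release granule contents were compared between genotypes. Of 19 listed genes 17 were tested and limma and edgeR called none. By each tool the unadjusted p was under 0.05 for 2 genes with a higher and 4 with a lower value. Over all 14419 tested genes it was under 0.05 for 1882 higher and 893 lower genes by limma. By edgeR there were 1650 and 1228, and by DESeq2 1592 and 825, which also serve as background for the lists below. DESeq2 called 1 lower, against 1.46% of all tested genes. This was Unc13d, which encodes Munc13-4, the factor that primes granules for fusion. Its normalized counts were 1440, 1475 and 1585 in WT and 1211 and 1256 in LC-/- DETCs (limma log2 fold change -0.28, adjusted p = 0.126). The highest levels per kb in WT DETCs were those of Calr (4193 ± 350), a chaperone found in granules, Srgn (4098 ± 556), the proteoglycan that holds granzymes, Cst7 (2391 ± 15.4), an inhibitor of granule cathepsins, and Ctsc (1249 ± 75.6), which activates granzymes (SD, n = 3). The log2 fold change of Srgn was 0.21, of Ctsc 0.01, of Cst7 -0.24 and of Calr -0.06, none of them called. The median over the tested genes of the list was -0.06, and 0.02 over all tested genes.

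Serpins, among them granzyme inhibitors, were expressed in DETCs. Of 7 listed genes 6 were tested and none was called by limma or edgeR, and the unadjusted p was under 0.05 for 1 higher and 1 lower gene by limma and for 1 higher and 2 lower genes by edgeR. Serpinb9, the inhibitor that shields killer cells from their own granzyme B, had 1659, 1382 and 1421 normalized counts in WT and 2168 and 1980 in LC-/- DETCs. Both LC-/- values lay above all WT values (log2 fold change 0.48, limma adjusted p = 0.0515), and DESeq2 called it higher, where DESeq2 called 6.02% of all tested genes higher. Serpinb6b had the highest level per kb of the list in WT DETCs, 1197 ± 158 (SD, n = 3), above Serpinb9 at 426 ± 42.9.

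The other effector molecules of killer cells, among them Fasl, Tnfsf10, Tnf and Ifng, were not called by limma, edgeR or DESeq2 in any of 10 cases. At an unadjusted p under 0.05 there were none by limma and 1 lower each by edgeR and DESeq2. The highest level per kb was that of Xcl1, a chemokine that attracts cross-presenting dendritic cells, with 9730 ± 1610 (SD, n = 3) in WT DETCs. Its log2 fold change was -0.27, and that of Tnf was 0.11.

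Transcription factors that govern cytotoxic genes were not called by limma or edgeR in any of 13 cases, with 2 higher at an unadjusted p under 0.05 by each tool. DESeq2 called both of these higher, against 6.02% of all tested genes. They were Runx3, which binds the RUNX core marked above (log2 fold change 0.43, limma adjusted p = 0.0958), and Nfil3 (0.55, limma adjusted p = 0.0665). Nfil3 also had the highest level per kb of the list in WT DETCs, 5274 ± 716 (SD, n = 3). Tbx21 had a log2 fold change of 0.34 (limma, adjusted p = 0.686).

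Genes of T cell activation and inhibition gave 2 calls higher among 13 tested, where limma called 3.13% of all tested genes higher. Havcr2, which encodes the inhibitory receptor Tim-3, had 2467, 3284 and 3324 normalized counts in WT and 8099 and 7741 in LC-/- DETCs (log2 fold change 1.40, limma adjusted p = 0.00832). Nr4a3, a nuclear receptor induced by T cell receptor signals, had 47829, 60083 and 62018 in WT and 113575 and 140919 in LC-/- DETCs (log2 fold change 1.17, limma adjusted p = 0.0240). Both genes were higher in both LC-/- libraries than in any WT library, while Prf1 was lower. Nr4a3 stayed called without W1 (limma, adjusted p = 0.0261) and lost its call without W2, W3, L2 or L3 (0.0760 to 0.107), whereas Havcr2 stayed called without any 1 library (0.0117 to 0.0422). Both were lost with eBayes without a trend (0.179), and Havcr2 also in 1 fit over all 11 libraries (0.108). By edgeR 3 genes of the list rose, with Nr4a2 added, against 2.84% of all genes called higher. DESeq2 called 4 higher, with Egr1 and Nr4a2 added, and 1 lower, Lag3, against 6.02% of all tested genes called higher and 1.46% lower.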

How the data were processed

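RNA-seq was analysed for sorted KCs and DETCs in 11 libraries (poly-A RNA, paired-end 75-base reads). Reads were trimmed by the authors (cutadapt), aligned to GRCm38 (hisat2) and counted over genes (featureCounts), and the counts were scaled by median-of-ratios size factors. The deposited values are this normalized signal per gene, without a log transformation. Dividing by the smallest step of each library gave whole numbers to within 0.01 reads for 100% of values, so read counts were recovered. Library totals and the floor of 3 reads limit precision by counting error alone.

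Gene symbols and exon lengths came from GENCODE mouse release M21, which matched 52403 of 52550 identifiers. Genes with a CPM over 1 in at least 2 libraries (14419) were tested on log2(value + 1), with a pseudocount of 1, in limma 3.58.1 (eBayes with trend, R 4.3.3, Benjamini-Hochberg over all tested genes, threshold 0.05). A fold change on this scale understates that of low genes. The filter follows the rule of the study's methods on the recovered reads, and it left fewer genes here than the study states. The study's DESeq2 test was kept as an alternative because the deposited table is normalized. On the recovered reads edgeR 4.0.16 called 410 genes higher and 73 lower in LC-/- DETCs, and DESeq2 1.42.0 was a further alternative. Other alternatives changed the pseudocount, filter, normalization, variance model, samples and gene length. T cell scaling was added after seeing the data. Scripts were tested on simulated data.

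The members and lists were chosen with earlier results of these data known. Named were all members with Gzmg and Gzmn, genes of the other lists called in DETCs between genotypes, up to 4 per list with the highest level in WT DETCs, and the 5 genes most like Gzmb and Prf1. Other genes, such as Serpinb9, Unc13d, Runx3, Tbx21, Ccl5, Cd8a, Trac and Lag3, were named after their values were seen. Values of 1 further marker list are not reported here.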

Additional observations from a re-analysis of the deposited data

How the results depend on the processing

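Of the results in DETCs, members called (1) became 2 with quantile normalization, where Nkg7 was called as well (log2 fold change -0.47, limma adjusted p = 0.0434), and 0 with eBayes without a trend and in 1 fit over all 11 libraries. With 1 replicate left out it was 0 to 1. Over all tested genes 452 were called higher and 62 lower (12.1% of calls lower). DESeq2 called 868 higher and 211 lower, quantile normalization 178 higher and 85 lower (32.3% lower), eBayes without a trend 0 and 0 (unadjusted p under 0.05 for 1554 higher and 853 lower genes), and 1 fit over all 11 libraries 834 and 125. With 1 replicate left out there were 29 to 478 higher and 0 to 112 lower, and a lone LC-/- library was then assumed to vary like the WT libraries. Without L3, Gzmb (-0.61) and Gzma (-0.46) changed direction, and with 1 replicate left out they reached 1.62 and 2.18. Over the alternatives the log2 fold change was -0.94 to -0.05 for Gzmc and -0.47 to -0.16 for Nkg7. T cell scaling moved the median of all genes from 0.02 to 0.11. Where the construction of an alternative does not show it, the cause was not tested. With longest transcripts the Prf1 level was 2388 per kb, against 2286, and the order of the 5 leading genes was the same.

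The numbers in the labels were not taken to pair KC and DETC libraries, since the labels do not say that a number stands for 1 animal. Deviations of same-numbered libraries correlated at -0.0534 (W1), 0.0667 (W2), 0.117 (W3), 0.143 (L2) and 0.117 (L3). Of these 5, 4 correlated best with their own number, so pairing is not excluded. With the number as a replicate block, 5 members were called higher in DETCs than in KCs, as without it, and 0 differed in genotype effect. Over all genes the block left 17 higher and 1 lower for that difference, against 89 and 26. Depth limits Gzmd, Gzme, Gzmf, Gzmk and Gzmm, which had at most 15 reads in a library.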

Other observations

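Levels of neighbours of the granzyme cluster on chromosome 14 are given as values. Of 8 mast cell and neutrophil protease genes there (Mcpt1, Mcpt2, Mcpt4, Mcpt8, Mcpt9, Cma1, Cma2 and Ctsg), 7 had no read in any DETC library, and Mcpt8 had a mean normalized count of 0.324 in WT DETCs and 0 in LC-/- DETCs. Within the cluster, reads in DETCs therefore fell on Gzmc and Gzmb, with 16058 and 2361 over the 5 libraries, and on Gzmf with 26 and Gzme with 1.

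Lag3, an inhibitory receptor, had 1535, 875 and 1237 normalized counts in WT DETCs and 462 and 710 in LC-/- DETCs. Both LC-/- values were below the WT values (log2 fold change -1.05, limma adjusted p = 0.0654), and it was called lower by DESeq2 but not by limma or edgeR. This is the opposite direction to Havcr2, another inhibitory receptor, and the cause was not tested.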
